A study of Homo sapiens with 2 samples.

Results

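Cytochrome P450 enzymes (CYP), UDP-glucuronosyltransferases (UGT), soluble glutathione transferases (GST) and cytosolic sulfotransferases (SULT) are the main enzyme families of drug metabolism. The genes described here encode these enzymes. They were taken by name from the table of read counts, leaving out the sterol synthesis gene CYP51A1, and kept where both libraries together held at least 20 reads. Of 105 genes with such a name, 56 were kept, or 0.313% of the 17915 genes that passed the same minimum: 24 CYP, 12 UGT, 12 GST and 8 SULT genes. The libraries were 1 ZMAT2 IP library, of RNA recovered with an antibody against the spliceosome protein ZMAT2, and 1 Input library, of RNA from lysate set aside before precipitation. Both came from HUH7, an established human hepatocellular carcinoma line, with no treatment named in the labels. Each group held 1 library, so every difference below is between these 2 libraries and has no replicate check. An IgG control was not analysed here, so whether a given ratio reflects binding to ZMAT2 was not tested.

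P450 enzymes oxidise lipophilic compounds with electrons passed on from NADPH by a reductase, and the heme iron at their centre carries the reactive oxygen. UGT, GST and SULT enzymes then join such compounds to glucuronic acid, glutathione or sulfate, which makes them easier to excrete. P450s and UGTs sit in membranes, mostly those of the endoplasmic reticulum, while the GST and SULT genes kept here encode soluble enzymes. The liver holds most of this capacity in the body, and hepatoma lines are known to keep only a part of it.

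Reads in genes numbered 25047635 for the ZMAT2 IP and 23485789 for Input. All 12 hepatocyte and hepatocellular carcinoma markers passed the minimum, with ALB at 117214 IP reads and 170426 Input reads. Of the immune markers 3 of 8 passed it and of the endothelial and stellate markers 2 of 8. PTPRC, which marks all leukocytes, had 0 IP reads and 1 Input read, and the endothelial gene CDH5 had 0 in both. The myeloid genes LYZ, CD68 and CD14 were present, with 6011, 159 and 70 IP reads against 8837, 174 and 32 Input reads, as were PECAM1, with 252 IP reads and 341 Input reads, and COL1A2, with 46 and 54. The part of such cells or genes in the results was not tested. ZMAT2 itself had 36553 IP reads and 5187 Input reads. Levels are in CPM, reads relative to the total of the library, scaled by TMM, a method that centres the ratios on the bulk of genes. A log2 ratio is that of the IP over Input, and the interval after it is a 95% interval for counting error, computed on pairs of reads because mates appear to have been counted singly. The word called is used for genes at least 2-fold apart whose interval excluded 0.

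Most of the drug metabolism genes stood at similar levels in the IP and in Input. Of the 56 genes, 45 lay within 2-fold, 3 were called higher and 4 were called lower in the IP. The genes called higher included CYP27B1 and CYP2A6, and those called lower were CYP2U1, UGT2B11, UGT2B7 and SULT6B1. Of all genes kept, 6.34% were called higher and 5.42% lower by the same rule, so the shares of the drug metabolism genes, 5.36% and 7.14%, were near the background. Scaling by library totals instead shifted the median over all genes by -0.106 on the log2 scale, and then 2 of the 56 genes were called higher and 5 lower, against 4.67% and 7.13% of all genes. All but CYP2U1 of the 7 called genes had fewer than 100 reads. With intervals on single reads, 3 of the 56 genes were called higher and 6 lower, against 7.41% and 6.96% of all genes. Whatever the interval, 4 lay past 2-fold higher and 7 lower, against 7.72% and 7.5% of all genes. At 20 to 99 reads, where 26 of the 56 genes lay, 8.24% of all genes were called higher and 10.0% lower. From 100 reads to under 1000, 0 of 21 were called higher and 1 lower, against 7.05% and 5.42% of all genes. None of the 9 drug metabolism genes with at least 1000 reads was called, against 4.56% and 2.71% of all genes at that depth. The median log2 ratio of the 56 genes was -0.09, beside 0.01 for all genes kept, and it was 0.01 with the UGT1A locus counted once.

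**Figure D1:**
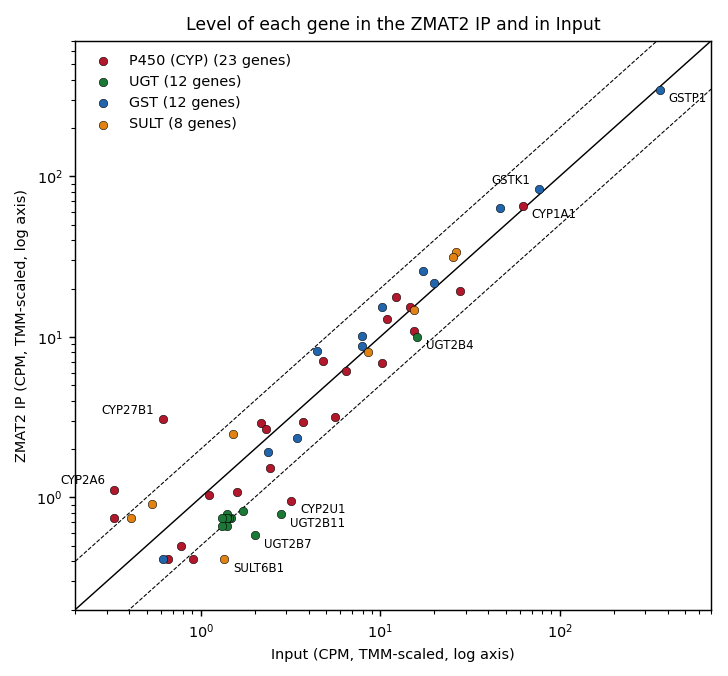
Level of 55 of the 56 genes in Input (horizontal) and in the ZMAT2 IP (vertical), in TMM-scaled CPM on log axes; 1 point is 1 gene, the solid line marks equal levels and the dashed lines a 2-fold difference. GSTP1 stands highest in both libraries, most genes lie between the dashed lines, and the genes outside them lie at low levels.

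**Figure D2:**
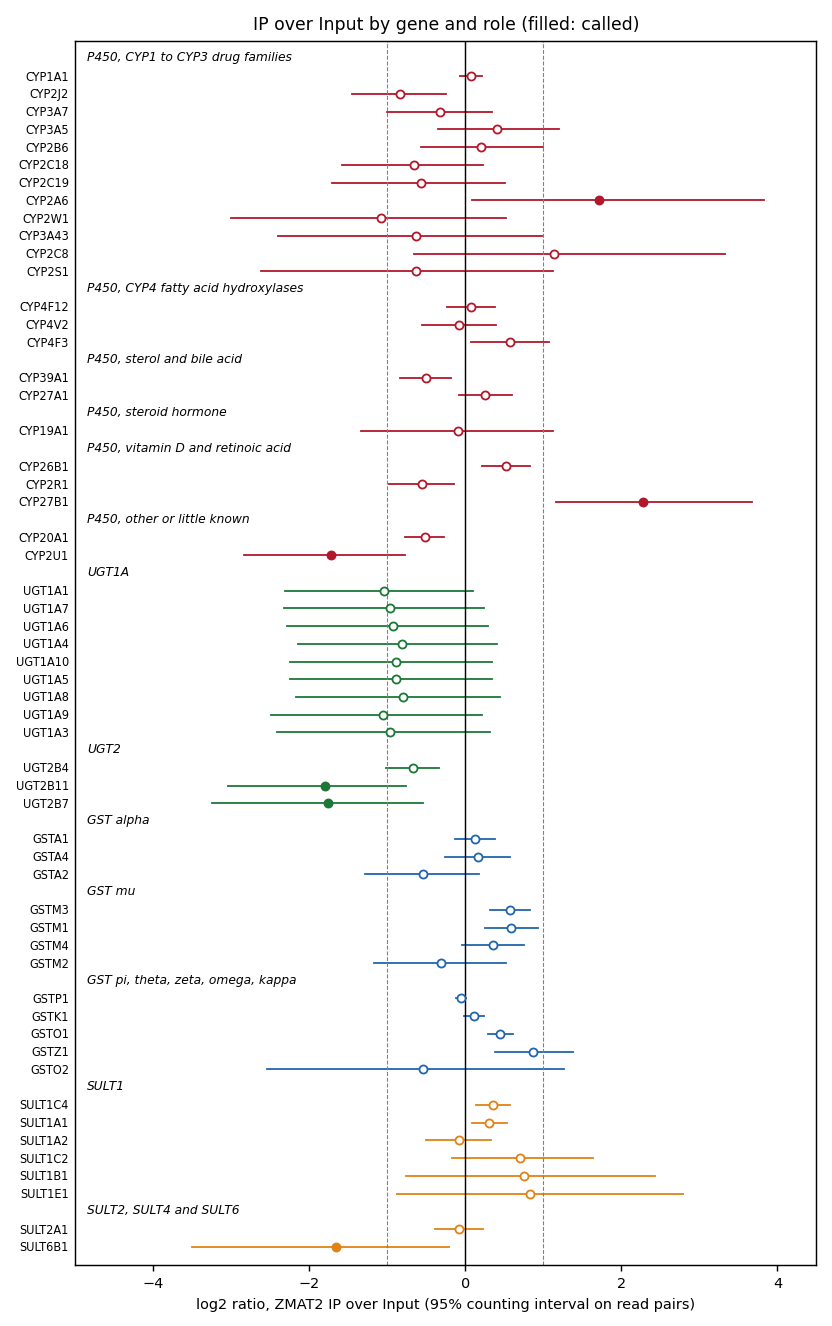
Log2 ratio of the ZMAT2 IP over Input for 55 of the 56 genes, grouped by role; bars are 95% counting intervals on read pairs, filled points are the called genes drawn, and dashed lines mark 2-fold. All 12 UGT points lie left of 0, and intervals are widest for genes with few reads.

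The 4 families differed in level. Per kb of exon, GSTP1 stood first by a wide margin, at 180.7 CPM per kb in the IP and 188.2 in Input, ranks 252 and 208 among the 17915 genes. GSTO1 followed at 37.4 CPM per kb in the IP and 27.5 in Input, then GSTA1 at 21.3 and 19.6, GSTK1 at 19.6 and 18.2, and CYP1A1 at 19.1 and 18.2. The levels of GSTA1, GSTK1 and CYP1A1 are close neighbours in this order, and no replicate shows how far such an order would hold. SULT1C4 was at 11.7 CPM per kb in the IP and 9.14 in Input, and no other gene of the 56 passed 10 CPM per kb in either library. The median level was 4.73 CPM per kb in the IP and 3.63 in Input for GST genes, and 1.93 and 1.94 for SULT genes. For P450 genes it was 0.686 in the IP and 0.651 in Input, and for UGT genes, with the UGT1A locus counted once, 0.296 and 1.04. Over all genes kept it was 3.37 in the IP and 3.25 in Input. GSTP1 alone took 39.4% (38.5 to 40.4) of the reads of the 4 families in the IP and 42.3% (41.4 to 43.3) in Input, with exact binomial intervals on read pairs. CYP1A1 took 35.2% (33.3 to 37.2) of the P450 reads in the IP and 32.6% (30.7 to 34.5) in Input.

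**Figure D3:**
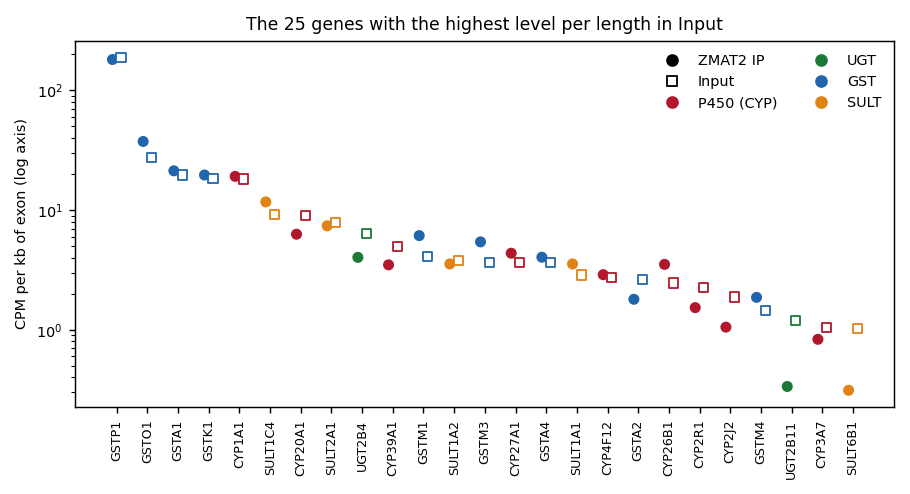
Level per length, in TMM-scaled CPM per kb of exon on a log axis, of the 25 genes that stand highest in Input; filled circles are the ZMAT2 IP and open squares Input, 1 library each. GSTP1 lies near 180.7 in the IP and 188.2 in Input, while UGT2B11 and SULT6B1 at the right are the genes whose symbols lie farthest apart.

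Among the P450s of the CYP1 to CYP3 families, which hold most drug-metabolising forms, 13 of 22 were kept. CYP2R1 and CYP2U1 are not counted in these and are given further below by role. CYP1A1, which oxidises polycyclic aromatic hydrocarbons and is induced through the aryl hydrocarbon receptor AHR, had 1585 IP reads and 1520 Input reads. Its log2 ratio was 0.07 (-0.07 to 0.22), so the libraries were close for this gene. Its start lies on the minus strand of chromosome 15, and the 100 bases before it (chr15:74725529-74725628, RefSeq, GRCh38.p14) are shown because CYP1A1 was the most abundant P450. Capitals mark GCGTG, the core of the element that AHR binds, searched on both strands.
CYP1A1: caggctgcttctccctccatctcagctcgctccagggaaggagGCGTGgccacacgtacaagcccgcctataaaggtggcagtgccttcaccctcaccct
The core stands once there, at base -57 counted from the start, and a TATAAA box lies closer to the start. In the 250 bases before the start, GCGTG was found in 12 of the 48 drug metabolism genes with a RefSeq promoter and in 31.9% of all 27305 promoters, so its presence is a description only.

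The other P450s of these families had far fewer reads. CYP2J2, an epoxygenase of arachidonic acid, had 76 IP reads and 137 Input reads, a log2 ratio of -0.83 (-1.45 to -0.24). CYP3A5 had 70 and 53 reads in the IP and in Input (0.41, -0.36 to 1.20). CYP3A7, the main fetal liver form, had 71 and 90 (-0.33, -1.01 to 0.34) and shares 42.7% of its exon bases with other genes, chiefly its own read-through. CYP3A43 had 12 IP reads and 19 Input reads. CYP2B6 had 64 in the IP and 56 in Input (0.20, -0.57 to 0.99), CYP2W1 10 and 22 (-1.09), and CYP2S1 10 and 16 (-0.64), with intervals that included 0. None of these 7 genes was called.

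CYP2A6, the main nicotine oxidase, was called higher in the IP. It had 27 IP reads and 8 Input reads, a log2 ratio of 1.71 (0.09 to 3.83) or 3.26-fold. With library totals the ratio of CYP2A6 was 1.60 and its interval included 0, so it was no longer called. CYP2C8, which oxidises paclitaxel, had 18 IP reads and 8 Input reads, a log2 ratio of 1.13 whose interval (-0.66 to 3.33) included 0. The neighbouring CYP2C19 and CYP2C18 stood the other way, with 26 and 37 reads in the IP and 39 and 59 in Input, and log2 ratios of -0.56 (-1.71 to 0.51) and -0.65 (-1.58 to 0.23). These 2 genes share 52.1% and 38.5% of their exon bases with other genes, mainly a read-through of the pair, which itself had 52 IP reads and 78 Input reads. CYP2C and CYP2A genes are close paralogs, and how reads that fit several of them were assigned is not given in the sources used here.

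Of the CYP4 family of fatty acid hydroxylases, 3 of 12 genes were kept, all within 2-fold. CYP4F12 had 373 IP reads and 358 Input reads (0.07, -0.23 to 0.38), and CYP4V2 148 and 158 (-0.08, -0.56 to 0.39). CYP4F3, which inactivates leukotriene B4, had 172 IP reads and 117 Input reads, a log2 ratio of 0.57 (0.07 to 1.07), with 5.85% of its exon bases shared.

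Of the sterol and bile acid P450s 2 of 6 were kept, and of the steroid hormone P450s 1 of 6, all with ratios within 2-fold. The sterol synthesis gene CYP51A1, which was left out of the gene set, was more than 2-fold lower in the IP. CYP51A1 had 6572 IP reads and 15019 Input reads, a log2 ratio of -1.18 (-1.24 to -1.12). CYP39A1, an oxysterol hydroxylase of bile acid synthesis, had 262 IP reads and 376 Input reads (-0.51, -0.84 to -0.18). CYP27A1, the mitochondrial sterol hydroxylase, had 314 and 265 (0.26, -0.09 to 0.60). The aromatase gene CYP19A1, which makes oestrogens, had 25 and 27 reads (-0.10, -1.33 to 1.12), with an interval that reached past 2-fold both ways. CYP7A1, the rate-limiting enzyme of bile acid synthesis, had 0 reads in both libraries.

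CYP27B1 had the highest log2 ratio of the 56 genes. This mitochondrial enzyme makes the active vitamin D hormone, and its gene spans chr12:57762334-57768986. CYP27B1 had 74 IP reads and 15 Input reads, a log2 ratio of 2.28 (1.16 to 3.67) or 4.85-fold, and 99.1% of all genes kept stood at or below it. Its neighbour METTL1, which overlaps its 5' end on the same strand by 3.11% of the CYP27B1 exon bases, had 521 IP reads and 399 Input reads, a log2 ratio of 0.40. The ratio of CYP27B1 exceeded that of METTL1 by 1.88 (0.79 to 3.45), a difference that does not depend on the scaling of the libraries. On the other side, MARCH9 (chr12:57755098-57760407) had 22 IP reads and 8 Input reads, a log2 ratio of 1.42 (-0.28 to 3.58), in the same direction as CYP27B1 with an interval that included 0. CYP2R1, which carries out the preceding hydroxylation of vitamin D, stood the other way with 167 IP reads and 249 Input reads (-0.56, -0.98 to -0.15). CYP26B1, which clears retinoic acid, had 426 IP reads and 300 Input reads (0.52, 0.21 to 0.83).

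The remaining P450s were CYP20A1 and CYP2U1. CYP20A1, an orphan P450, had 467 IP reads and 677 Input reads, a log2 ratio of -0.52 (-0.77 to -0.28), within 2-fold. CYP2U1, which hydroxylates long-chain fatty acids, was called lower, with 23 IP reads and 78 Input reads and a log2 ratio of -1.73 (-2.84 to -0.77), or 3.31-fold lower. It shares 8.61% of its exon bases with other genes, in part on the opposite strand.

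UGT genes stood lower in the IP throughout. All 12 UGT genes kept lay below the median of all genes, with log2 ratios from -1.80 to -0.67 and a median of -0.95. Of the 12, 2 were called lower, beside 5.42% of all genes and 10.0% of those with 20 to 99 reads. These 12 are not 12 separate observations, because 9 belong to the UGT1A locus on chromosome 2. In that locus each gene has its own first exon and promoter, and all are spliced to the same remaining exons. In the deposited coordinates, 1478 exon bases in 4 blocks between 233767034 and 233773299 were common to all 9 genes and made up 28.5% to 63.0% of the exon bases of each gene. The 9 genes had 16 to 20 reads each in the IP and 32 to 42 in Input, and reads in the common blocks cannot be told apart by gene. UGT1A1, which conjugates bilirubin, had 20 IP reads and 42 Input reads, a log2 ratio of -1.04 (-2.31 to 0.09), and the 9 ratios ran from -1.05 to -0.80, with intervals that all included 0. With library totals UGT1A1 was called lower, at -1.14.

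The promoters of UGT1A1 and UGT1A3 differ in sequence. The 100 bases before the starts of UGT1A1 (chr2:233760170-233760269) and UGT1A3 (chr2:233728942-233729041), both on the plus strand, follow. Capitals mark GTTAAT, part of the element that the liver factor HNF1 binds, on either strand.
UGT1A1: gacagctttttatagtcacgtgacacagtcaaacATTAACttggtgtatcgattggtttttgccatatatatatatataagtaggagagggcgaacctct
UGT1A3: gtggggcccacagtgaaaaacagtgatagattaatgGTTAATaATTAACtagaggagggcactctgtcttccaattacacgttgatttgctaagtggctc
UGT1A1 holds the letters once, on the opposite strand, and UGT1A3 holds them on both strands side by side. These letters occurred in the 250-base window of 9 of the 48 drug metabolism genes with a promoter (18.8%) and of 6.22% of all promoters, and the counts do not tell which of these first exons the reads came from.

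Of the UGT2 genes, which lie together on chromosome 4, 3 of 10 were kept. UGT2B4, which conjugates bile acids, was the most abundant UGT, with 242 IP reads and 389 Input reads and a log2 ratio of -0.67 (-1.01 to -0.34). UGT2B7, which conjugates morphine, had 14 IP reads and 49 Input reads and was called lower, at -1.76 (-3.25 to -0.54) or 3.38-fold lower. UGT2B11 was called lower too, with 19 IP reads and 68 Input reads (-1.80, -3.04 to -0.76). It shares 17.9% of its exon bases with a gene on the opposite strand that had 7 IP reads and 29 Input reads. Against UGT2B4, the ratio of UGT2B11 was lower by 1.13 on the log2 scale, with an interval of the difference from -2.53 to -0.08, while that of UGT2B7 included 0 (-2.60 to 0.22). With the UGT1A locus counted once, the 4 UGT entries together had 295 IP reads and 548 Input reads, a log2 ratio of the sums of -0.88 (-1.18 to -0.59). Most of these reads were those of UGT2B4.

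None of the 12 GST genes kept was called, beside 6.34% of all genes called higher and 5.42% lower. Their log2 ratios ran from -0.55 to 0.87, with a median of 0.14, and 8 of them lay above the median of all genes. GSTP1, whose enzyme conjugates glutathione to many electrophiles, had 8356 IP reads and 8780 Input reads, a log2 ratio of -0.06 (-0.12 to 0.00). The 100 bases before its start, on the plus strand of chromosome 11 (chr11:67583712-67583811), are shown because it was the most abundant gene of the 56, with TGANNNNGC, the core of the antioxidant response element, in capitals.
GSTP1: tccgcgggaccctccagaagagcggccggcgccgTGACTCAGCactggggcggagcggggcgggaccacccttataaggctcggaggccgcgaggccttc
Searched on both strands, the core was found once, at base -66. It occurred in the 250-base window of 19 of the 48 drug metabolism genes (39.6%) and of 35.4% of all promoters.

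Of the other GST genes, GSTK1, an enzyme of mitochondria and peroxisomes, had 2002 IP reads and 1876 Input reads (0.11, -0.02 to 0.24). GSTO1, an omega class enzyme with thioltransferase activity, had 1526 and 1131 (0.44, 0.29 to 0.60). GSTZ1, which also serves in tyrosine breakdown, had 196 IP reads and 108 Input reads, the highest log2 ratio of the family at 0.87 (0.38 to 1.38), and GSTO2 had 10 and 15. In the mu class, GSTM3 had 622 IP reads and 422 Input reads (0.57, 0.32 to 0.83), GSTM1 371 and 249 (0.59, 0.25 to 0.93), GSTM4 246 and 194 (0.35, -0.04 to 0.75), and GSTM2 46 and 58 (-0.32, -1.18 to 0.52). GSTM1 shares 38.3% of its exon bases, 22.3% with GSTM2, and how reads of these paralogs were divided is not known here. In the alpha class, GSTA1 had 523 IP reads and 486 Input reads (0.12, -0.14 to 0.38), GSTA4, which detoxifies lipid peroxidation products, 212 and 192 (0.16, -0.26 to 0.57), and GSTA2 57 and 84 (-0.54, -1.29 to 0.17).

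Sulfotransferase genes had a median log2 ratio of 0.33, with 5 of 8 above the median of all genes. SULT1C4 had 818 IP reads and 645 Input reads (0.36, 0.14 to 0.57), and SULT1A1, the main phenol sulfotransferase of liver, 763 and 622 (0.31, 0.09 to 0.53). SULT1A2 had 195 IP reads and 209 Input reads (-0.09, -0.50 to 0.32), and SULT2A1, which sulfates dehydroepiandrosterone and bile acids, 354 and 378 (-0.08, -0.39 to 0.22). SULT1C2 had 60 IP reads and 37 Input reads. SULT1B1, a thyroid hormone sulfotransferase, had 22 and 13, and SULT1E1, which inactivates oestrogens, 18 and 10. The log2 ratios of these 3 ran from 0.70 to 0.83 with intervals that included 0. SULT6B1 was the only sulfotransferase called, 1 of 8 beside 6.34% of all genes called higher and 5.42% lower. It had 10 IP reads and 33 Input reads and a log2 ratio of -1.66 (-3.51 to -0.20). It shares 6.11% of its exon bases with CEBPZOS on the opposite strand, which had 528 IP reads and 776 Input reads.

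Pooled by where the enzymes sit, the families had different medians. The 36 CYP and UGT genes had a median log2 ratio of -0.60, with 11 above the median of all genes, and the 20 GST and SULT genes one of 0.23, with 13 above it. Depth differed between these groups too, at a median of 76 reads per gene for CYP and UGT and 422 for GST and SULT. The difference of the medians was -0.83 with all genes and -0.65 with the UGT1A locus counted once. It was -0.39 without genes that overlap others by 5% or more of their exon bases, and -0.24 at a minimum of 100 reads. A minimum of 1000 reads, which left 9 genes and no UGT among them, gave -0.53, and no minimum gave -0.83. The P450 genes alone had a median of -0.09 and a log2 ratio of their summed reads of -0.04 (-0.12 to 0.05), while the 12 UGT genes, 9 of them of 1 locus, had a median of -0.95. With 1 library per group, this difference was not tested. Across the 48 entries with the locus counted once, IP and Input levels correlated with a Pearson r of 0.963 on log2 (CPM + 1). With gene span, the rank correlation of the log2 ratio was -0.13, beside -0.20 over 12955 protein-coding genes. These correlations are across genes that share the same 2 libraries.

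Many of these genes lie in clusters, defined here by distance alone, and 39 of the 56 had a neighbour among them within 500 kb, in 11 clusters. In 8 clusters, genes lay on both sides of a log2 ratio of 0. Many of these ratios had intervals that included 0, and how often groups of unrelated genes would do the same was not tested. In the cluster of chromosome 4 between 69051363 and 69860152, UGT2B7, UGT2B11 and UGT2B4 stood lower in the IP while SULT1B1 and SULT1E1 stood higher. The intervals of SULT1B1 (-0.76 to 2.43) and SULT1E1 (-0.87 to 2.79) included 0. The log2 ratio of SULT1E1 exceeded that of UGT2B7 by 2.59 (0.36 to 4.95), and the ratio of SULT1B1 exceeded it by 2.51 (0.53 to 4.83). Against UGT2B4, which had the most reads of this cluster's UGT genes, SULT1E1 differed by 1.501 with an interval that included 0 (-0.25 to 3.48). GSTM3 exceeded GSTM2 by 0.89 (0.01 to 1.79), and the interval for GSTM1 over GSTM2 just included 0. Differences were computed for 14 pairs of genes, chosen with their values known, and 5 intervals excluded 0. Among these is that of CYP27B1 and METTL1, a pair outside these clusters. These intervals cover counting error only and were not adjusted for the number of pairs.

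**Figure D4:**
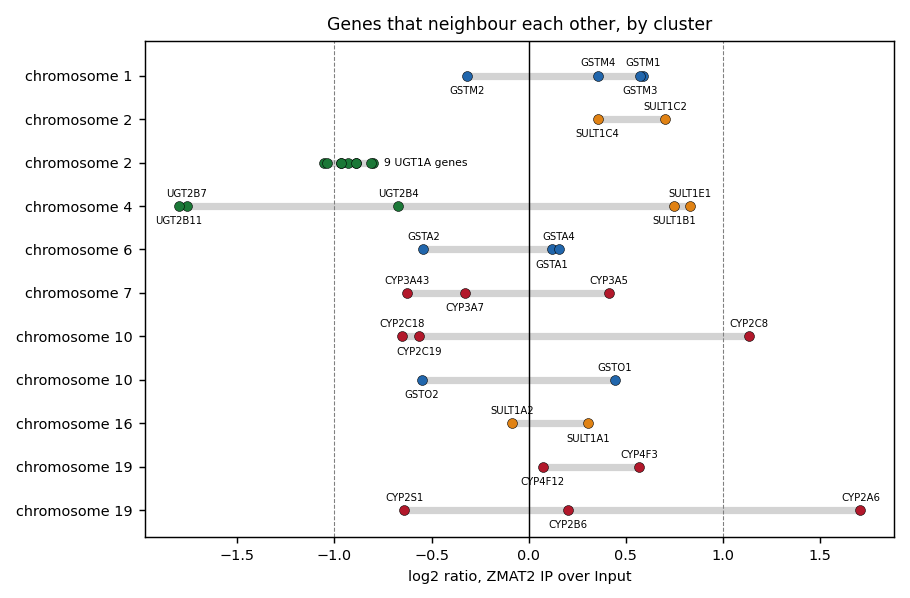
Log2 ratio of the ZMAT2 IP over Input for genes that neighbour each other within 500 kb, with 1 line per cluster and 1 point per gene coloured by family (CYP red, UGT green, GST blue, SULT orange). Grey bars span the lowest to the highest gene drawn; the chromosome 4 cluster runs from -1.80 to 0.83 and the UGT1A genes lie together between -1.05 and -0.80.

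Genes that supply or control these enzymes were compared next. The P450 electron donors had no called member among 10, beside 6.34% of all genes called higher and 5.42% lower. Their median log2 ratio was -0.05. POR, the reductase that feeds microsomal P450s, had 4640 IP reads and 2960 Input reads (0.66, 0.57 to 0.76), and CYB5R3, which reduces cytochrome b5, 3642 and 3771 (-0.04, -0.13 to 0.06). Heme synthesis and breakdown genes had 2 of 12 called higher, none lower, and a median of 0.30, beside 6.34% of all genes called higher and 5.42% lower. Among those called was PPOX, the penultimate enzyme of the pathway, which had 102 IP reads and 40 Input reads (1.35, 0.59 to 2.19) and shares 24.3% of its exon bases. CPOX had 2334 IP reads and 2580 Input reads, and ALAS1, the rate-limiting enzyme, 2147 and 1759 (0.30, 0.17 to 0.43).

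The 11 genes that supply UDP-glucuronic acid, activated sulfate and glutathione had none called and a median of 0.10. Of all genes, 6.34% were called higher and 5.42% lower. UGDH, which makes UDP-glucuronic acid, had 3905 IP reads and 3682 Input reads (0.10), and the glutathione reductase gene GSR 5536 and 5433 (0.04). Transcription factors of xenobiotic metabolism had 2 of 18 called higher and none lower, against the same 6.34% and 5.42% of all genes, and a median of 0.43. NR0B2, a corepressor of nuclear receptors in bile acid feedback, had 73 IP reads and 26 Input reads (1.48, 0.56 to 2.54). CEBPA, a liver-enriched factor that shares 43.4% of its exon bases, had 2148 and 1039 (1.06, 0.91 to 1.21). HNF4A had 6009 IP reads and 4649 Input reads (0.38, 0.30 to 0.46), and the oxidative stress factor NFE2L2 4487 and 5611 (-0.31, -0.39 to -0.23).

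Other enzymes of drug metabolism had no called member, beside 6.34% of all genes called higher and 5.42% lower. Of 37 further oxidising, reducing and hydrolysing enzymes, 30 were kept, with a median log2 ratio of 0.26 and 21 genes above the median of all genes. ALDH1A1, an aldehyde dehydrogenase that makes retinoic acid, had 34470 IP reads and 28780 Input reads (0.27, 0.24 to 0.30), and ADH5 6734 and 5701 (0.25, 0.18 to 0.33). Of 12 further conjugating enzymes, 10 were kept, with a median of -0.27. Among them the microsomal transferase MGST1, a membrane protein, had 3705 IP reads and 5303 Input reads (-0.50, -0.59 to -0.42), and HNMT, which methylates histamine, 2755 and 3678 (-0.40, -0.51 to -0.30). For comparison, organic-ion and ABC transporters had 1 of 51 called higher and 4 lower, with a median of -0.11. Apolipoproteins had 2 of 15 called higher and none lower, with a median of -0.04. Both stand beside 6.34% of all genes called higher and 5.42% lower.

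**Figure D5:**
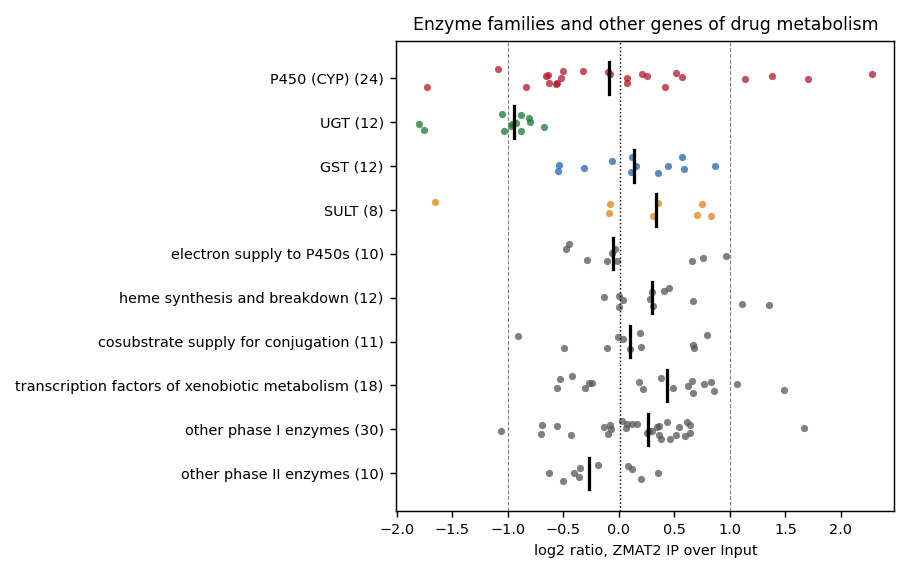
Log2 ratio of the ZMAT2 IP over Input for the 4 enzyme families (coloured) and the other genes of drug metabolism (grey), 1 point per gene with the number of genes in brackets. Black bars are medians, the dotted line is the median of all genes kept and dashed lines mark 2-fold; the UGT median of -0.95 lies farthest from the dotted line.

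Of the 49 genes under the minimum, 21 had no read in either library and 28 had 1 to 19 reads. CYP3A4 and CYP1A2, the chief adult liver P450s for many drugs, had 0 reads in both, which allows up to 0.248 CPM in the IP and 0.246 in Input, the level of 3 read pairs. CYP2E1, the ethanol-inducible form, had 0 IP reads and 2 Input reads. Just above the minimum stood GSTO2 with 25 reads in the 2 libraries together and CYP2C8 and CYP2S1 with 26 each. Just below it stood CYP2D6 with 14 IP reads and 3 Input reads, CYP1B1 with 9 and 8, and UGT2B10 with 0 and 16.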

How the data were processed

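RNA was measured in 1 ZMAT2 IP and 1 Input library of HUH7 cells. The authors deposited raw read counts per gene beside exon coordinates and lengths. Tools listed in the submitters' processing notes are STAR 2.5.3a, fastp 0.23.4 and edgeR 3.12.1, with the build GRCh38. For the counting tool and the annotation, nothing is given in the sources used here. Among counts of 1 to 6, 77.9% in the IP and 67.1% in Input were even, so mates appear to have been counted singly.

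A minimum of 20 reads over the 2 libraries kept 17915 of 56303 genes. TMM factors came from edgeR 4.0.16 in R 4.3.3, and DESeq2 1.42.0 gave alternative size factors. The log2 ratio used a prior count of 0.5. Intervals are exact (Clopper-Pearson) 95% intervals of the IP share, on counts divided by 2. No quasi-likelihood test was possible with 1 library per group. Differences between 2 genes are the log2 ratio of one minus that of the other. Their intervals are exact intervals of the conditional odds ratio (scipy 1.17.1), on counts divided by 2 and rounded down. No molecular identifiers are named in the labels, so intervals and the floor of 3 read pairs cover counting error only. Shared exon bases were counted on either strand; where exons overlap, genes cannot be told apart. All 56 symbols matched the RefSeq gene table of GRCh38.p14. The calculation was run on simulated counts drawn as whole read pairs with counting error only. In these libraries part of the low counts were odd, so that run does not test the intervals on the real counts.

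Named genes are every called gene, every gene with 1000 or more reads, the UGT1A locus and those nearest the minimum; from each list, the 2 with the most reads and any called gene. Other genes of the 56 are given by role, and results of some genes are not reported here. The members and lists were chosen with earlier results of these data known.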

Additional observations from a re-analysis of the deposited data

How the results depend on the processing

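The number of drug metabolism genes called higher in the IP, 3 of 56, came to 0 with a minimum of 100 reads and to 0 with 1000, and to 5 with a fold of 1.5. The number called lower, 4, came to 1 with a minimum of 100 reads, 0 with 1000, 1 without genes whose exons overlap others by 5% or more, and 7 for any ratio past 2-fold whatever its interval. The stricter minimums leave 30 and 9 genes, which takes out 6 and all 7 of the called genes by construction. With scaling redone at each minimum, 5.55% of all genes were called higher and 4.24% lower at 100 reads. At 1000 reads it was 4.6% and 2.67%. A fold of 1.5 called 15.5% and 13.3% of all genes. Under the other settings the counts stayed at 2 or 3 higher and 4 to 6 lower. These settings were library totals, DESeq2 size factors, no minimum, a prior count of 2, single reads and the UGT1A locus counted once. Under them, 4.61% to 7.41% of all genes were called higher and 3.87% to 7.13% lower. With no minimum 84 drug metabolism genes entered, and the 5 called lower included UGT2B10. The median of UGT genes ran from -1.40 to -0.68, with no UGT gene left at 1000 reads, that of GST genes from 0.03 to 0.17 and that of SULT genes from 0.10 to 0.36. That of P450 genes ran from -0.31 to 0.07 and that of all members from -0.50 to 0.12, so these 2 had no settled sign. CYP2A6 lost its call with library totals (1.60), and UGT1A1 gained one with library totals (-1.14) and with intervals on single reads (-1.04), while UGT1A9 gained one with single reads (-1.05). Both passed 2-fold whatever the interval, as did CYP2C8 (1.13) and CYP2W1 (-1.09). The UGT1A locus counted once and ratios past 2-fold whatever the interval were chosen after seeing the data. No paired analysis was possible because each group held 1 library, and for the same reason no library could be left out.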

Other observations

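Genes under the minimum of 20 reads entered only 1 comparison above, the setting with no minimum. The medians of -0.50 for all members and -0.31 for P450 genes came from that setting. The genes given here were chosen after their values were seen. Together, the 7 UGT2 genes in this class had 8 IP reads and 45 Input reads, a sum that can hold the same read more than once. Of these, UGT2B10 had 0 and 16 reads in the IP and in Input, UGT2A3 4 and 10, UGT2A1 2 and 8, UGT2A2 2 and 6, and UGT2B15 0 and 4. UGT2 genes are close paralogs, and UGT2A2 shares 93.2% of its exon bases with UGT2A1, so these are not separate observations.

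Some P450 genes under the minimum had more reads in the IP. CYP2D6 had 14 in the IP and 3 in Input, its neighbour and close copy CYP2D7 9 and 1, CYP8B1, which sets the balance of bile acids, 12 and 3, and CYP4F11 6 and 0. Others had more reads in Input, among them CYP24A1 with 2 IP reads and 9 Input reads. CYP2F1 and CYP46A1 each had 0 in the IP and 6 in Input. Over all 31 P450 genes under the minimum, the IP held 60 reads and Input 57.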
